A study of Bos taurus with 15 samples.

Results

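The genes described here encode proteins that coat, enlarge or form the lipid droplet: the perilipins PLIN1, PLIN2, PLIN3, PLIN4 and PLIN5, the CIDE proteins CIDEA and CIDEC, the fat storage-inducing transmembrane proteins FITM1 and FITM2, and seipin, encoded by BSCL2. They were chosen by symbol, and a symbol was kept when all 6 deposited tables listed it. Of the 10 symbols, 9 were found among 13896 genes, and PLIN4 is not analysed here. RNA from 15 biopsies of subcutaneous adipose tissue of primiparous Holstein cows, taken at the dewlap, had been sequenced without poly(A) selection, in 5 groups of 3 libraries. The group at -4 weeks peripartum (wkpp) was sampled about 1 month before calving, before the diets began. LE cows had received a low energy diet since then and HE cows a high energy diet, and both were sampled at 1 and at 16 wkpp. The study lists no energy state for the -4 wkpp libraries, and which cows they came from is not given. They cannot be read as the own earlier level of the LE or of the HE cows. The study grouped its cows by energy balance at 1 wkpp, and by the library numbers its severe negative energy balance (SNEB) libraries are those labelled LE and its moderate negative energy balance (MNEB) libraries those labelled HE. Diet and energy balance therefore cannot be told apart here, and a difference between the diets below stands for LE against HE libraries. The cows sequenced had been picked for their energy balance and are not a random sample of the herd.

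In an adipocyte, triacylglycerol is stored in a large droplet that is bounded by a single layer of phospholipid. Droplets form in the membrane of the endoplasmic reticulum, where seipin and the FIT proteins act, and grow when CIDE proteins pass lipid from one droplet to another. Perilipins cover the surface and set the access of lipases to the stored fat, which is built up when energy is in surplus and released around calving.

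The tables give, for each gene, the mean of normalised read counts over the 6 libraries of a comparison. One mean counts exon reads and the other counts the entire gene with its introns. For PLIN1, for example, the deposited mean of exon reads was 9516 for -4 wkpp with HE 1 wkpp, 29447 for -4 wkpp with LE 1 wkpp and 13760 for LE 1 wkpp with HE 1 wkpp. Each table has its own scale, so these means cannot be set side by side, but every group enters 2 or more tables. The level of a gene in each group was solved from the overlapping means after the tables were brought to one scale, and a level is a mean over 3 libraries in normalised reads. No value of a single cow could be obtained, so no level has a replicate error and no difference was tested against the spread between cows. Whether a single cow decided any of the values below could not be seen from these means. The range given in brackets covers the uncertainty of the scale between tables only. A gene was counted as past 2-fold when the exon level and the entire gene level differed by 2-fold or more in the same direction, with a mean exon level of at least 10 in the 2 groups. The share of all genes that met this is given with each comparison of the droplet genes. It is also the background for the counts of the other gene lists. The comparisons share groups, so their counts are not independent of each other. Levels are not compared between genes, because gene length was not taken into account.

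Fewer reads were counted on genes in the HE groups. About 38.4 M, 39.3 M and 41.5 M exon reads on genes were behind the groups at -4 wkpp, LE 1 wkpp and LE 16 wkpp, against 12.2 M and 14.0 M behind HE 1 wkpp and HE 16 wkpp. The relative exon size factors of the libraries were 0.97, 0.38 and 0.29 in HE 1 wkpp and 1.04, 0.39 and 0.38 in HE 16 wkpp. In the other groups they lay between 1.10 and 1.95. A level weighs the 3 libraries equally, so the shallow libraries carry most of each HE level. These are reads counted on exons and not reads sequenced, and the study's own statistics list lower alignment and more multiple mapping for the same libraries. The part of alignment in the differences between LE and HE cows was not tested. Synthetic spike-in RNAs amounted to between 2.93% and 5.30% of the summed gene level in the first 3 groups, to 90.1% in HE 1 wkpp and to 43.1% in HE 16 wkpp. Scaling to the spike-ins would move the exon level of every gene by 3.89, 4.13 and 3.82 on the log2 scale, upwards, in -4 wkpp over HE 1 wkpp, LE 1 wkpp over HE 1 wkpp and LE 16 wkpp over HE 16 wkpp. The same scaling would move exon levels by -0.24 in -4 wkpp over LE 1 wkpp, -0.69 in LE 1 wkpp over LE 16 wkpp and -1.0 in HE 1 wkpp over HE 16 wkpp. The shifts of entire gene levels had the same signs except in -4 wkpp over LE 1 wkpp, where the shift was 0.04. All differences below are therefore relative to the other genes of the same libraries. In bulk tissue, fewer cells of a type and less RNA per cell cannot be told apart.

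The tissue carried adipocyte RNA in all groups, as 12 of 13 adipocyte markers were listed and all 12 lay over the minimum level in every comparison; ADIPOQ was not analysed here. FABP4, the fatty acid binding protein of adipocytes, had exon levels of 19929 at -4 wkpp, 43444 in LE 1 wkpp, 21586 in LE 16 wkpp, 15783 in HE 1 wkpp and 13277 in HE 16 wkpp. Other cell types also moved with the groups. The summed exon level of 3 mast cell markers was 3408 at -4 wkpp, 1886 and 2261 in LE 1 and LE 16 wkpp, but 308 and 335 in HE 1 and HE 16 wkpp. The sum of 5 macrophage markers was 5766, 9487, 11968, 4317 and 2036 in the same order of groups. The 5 smooth muscle markers summed to 21988, 11400, 10391, 15696 and 35708, and all 5 were past 2-fold and lower in LE 16 than in HE 16 wkpp. The 6 endothelial markers summed to 21434, 34131, 23823, 46018 and 28408, highest in HE 1 wkpp. Their part in the values of the droplet genes was not tested.

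**Figure D1:**
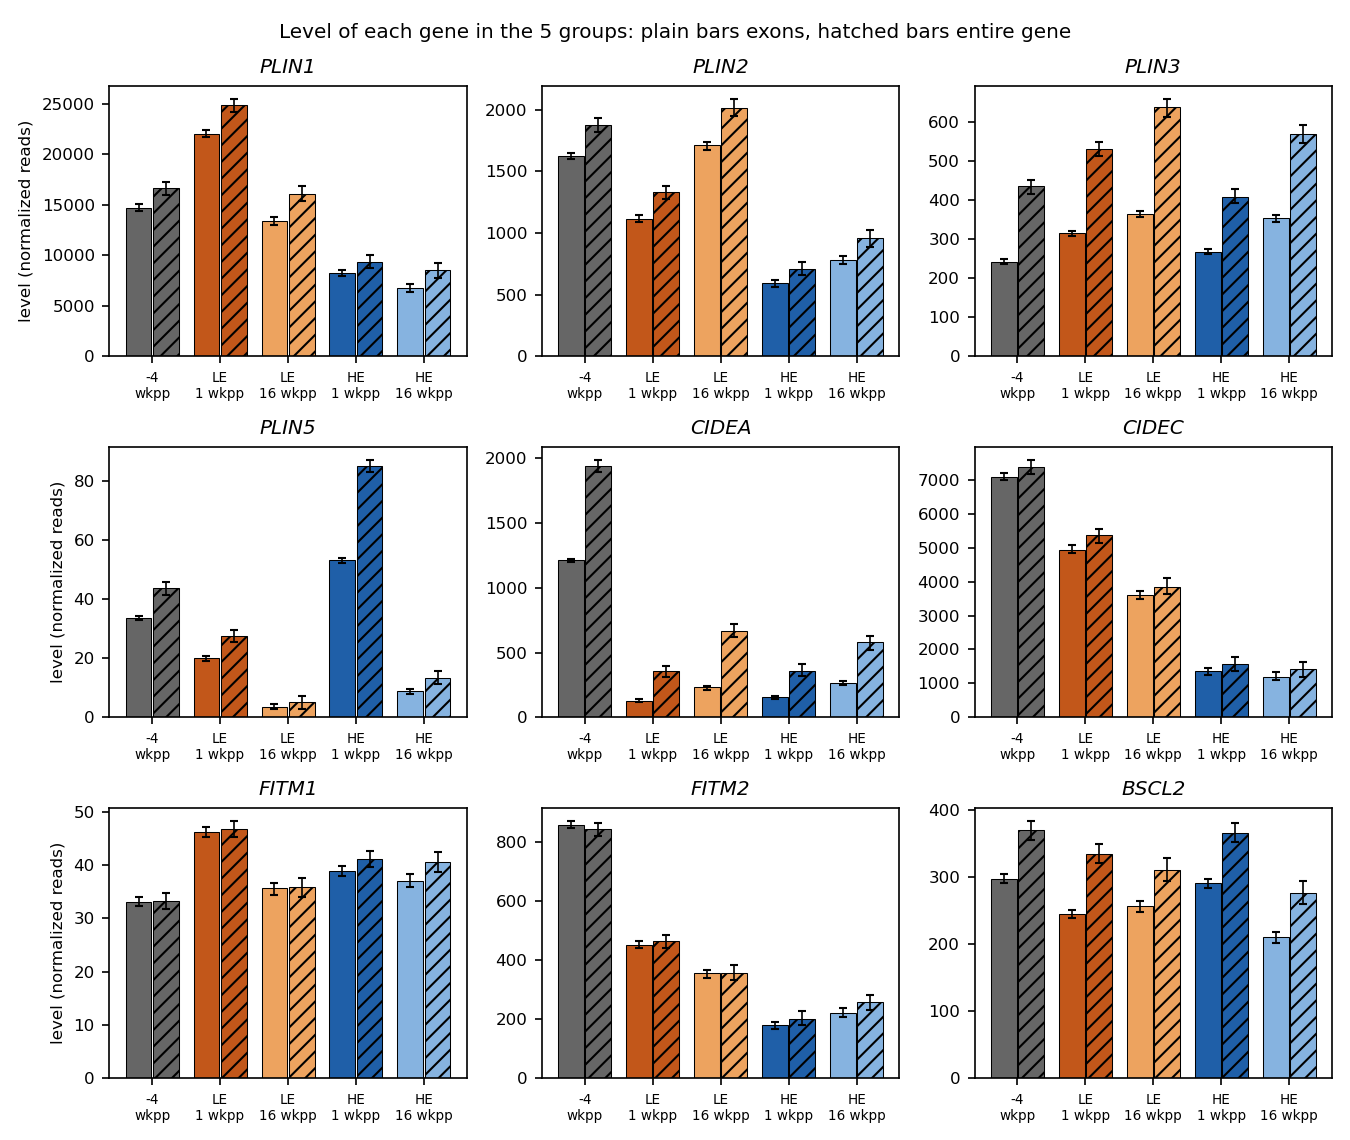
Exon level (plain bars) and entire gene level (hatched bars) of each of the 9 genes, in normalised reads averaged over 3 libraries, in the 5 groups. The whiskers cover the scale between tables only, not the spread between cows. PLIN1 was highest in LE 1 wkpp, CIDEA, CIDEC and FITM2 were highest at -4 wkpp, and PLIN5 was highest in HE 1 wkpp, where spike-in scaling would put -4 wkpp first.

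PLIN1, the main coat protein of the adipocyte droplet and the gatekeeper of its lipases, had an exon level of 14708 (14385 to 15050) at -4 wkpp. In LE cows it was 22037 (21734 to 22399) at 1 wkpp and 13430 (13000 to 13793) at 16 wkpp. In HE cows it was 8278 (7923 to 8589) and 6759 (6375 to 7183). The exon ranges of the 5 groups did not overlap, but by entire gene reads those of -4 and LE 16 wkpp did, as did those of HE 1 and HE 16 wkpp. By exon reads the highest group stood 3.26-fold over the lowest. At 1 wkpp PLIN1 lay on opposite sides of the level of the -4 wkpp group in the 2 diets. It was higher than at -4 wkpp by 0.58 on the log2 scale in LE cows and lower by 0.83 in HE cows. These steps were both under 2-fold, while the direct comparison of LE with HE at 1 wkpp was past it, at 2.66-fold by exon reads and 2.67-fold by entire gene reads. At 16 wkpp PLIN1 stayed just short, with 1.99-fold by exon and 1.88-fold by entire gene reads.

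PLIN2, which coats droplets in most cell types and is degraded when it is not bound to lipid, had an exon level of 1624 (1599 to 1651) at -4 wkpp. It was 1116 and 1712 in LE 1 and LE 16 wkpp, and 592 and 780 in HE 1 and HE 16 wkpp. Both diets had less PLIN2 at 1 wkpp than at -4 wkpp and more at 16 than at 1 wkpp, but only in LE cows did the level at 16 wkpp pass that before calving. The gene was past 2-fold in -4 wkpp over HE 1 wkpp, at 2.74-fold, and in LE 16 wkpp over HE 16 wkpp, at 2.20-fold. At 1 wkpp the LE level was 1.89-fold over the HE level. PLIN2 is also abundant in macrophages that store lipid, and the macrophage markers above were higher in LE than in HE cows at both times.

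PLIN3, a cytosolic perilipin that moves onto new droplets, varied little. Its exon level was 243 at -4 wkpp, 315 and 365 in LE 1 and LE 16 wkpp, and 268 and 354 in HE 1 and HE 16 wkpp. The highest group stood 1.51-fold over the lowest, and the ranges of LE 16 and HE 16 wkpp overlapped. The difference between -4 and HE 1 wkpp changed sign with the reads counted, from -0.14 on the log2 scale for exons to 0.09 for the entire gene. PLIN3 had its highest level at 16 wkpp in both diets.

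PLIN5, the perilipin of oxidative tissues that ties droplets to mitochondria, had the widest relative range of the 9 genes and rested on few reads. Its exon level was 33.5 (32.8 to 34.4) at -4 wkpp, 19.9 (19.1 to 20.7) and 3.56 (2.68 to 4.42) in LE 1 and LE 16 wkpp, and 53.1 (52.3 to 53.9) and 8.80 (7.92 to 9.69) in HE 1 and HE 16 wkpp. About 152, 105, 18.4, 87.3 and 16.0 exon reads over 3 libraries lay behind these levels in the same order. The 95% counting intervals, which cover counting error only, were 42.4 to 65.3 in HE 1 wkpp and 5.03 to 14.3 in HE 16 wkpp, and they were 16.3 to 24.1 in LE 1 wkpp and 2.07 to 5.51 in LE 16 wkpp. They treat the 3 libraries of a group as a single pool, so they are too narrow in the HE groups, where library depths differed. PLIN5 was thus higher at 1 than at 16 wkpp in both diets, 6.03-fold in HE cows and 5.59-fold in LE cows. At 1 wkpp it was the only one of the 9 genes past 2-fold with a lower level in LE than in HE cows, by 2.67-fold, but this direction turned under spike-in scaling, to 2.72 on the log2 scale. At 16 wkpp its mean exon level was under the minimum of 10. PLIN5 is strongly expressed in muscle. Of the skeletal muscle markers, ACTA1, skeletal alpha-actin, had exon levels of 5.15, 1.12, 1.35, 30.8 and 13.0, and MYH1, a fast myosin heavy chain, had 6.93, 0.57, 1.93, 31.9 and 2.56 in the same order of groups, with the LE 1 wkpp value of MYH1 set at the floor of 3 reads over the group. HE 1 wkpp was thus the highest group for both markers as for PLIN5. The summed exon level of the 12 skeletal muscle markers was 3178, 1700, 1574, 3966 and 7538, most of it from DES, desmin, which smooth muscle also makes, and TNNT3, fast troponin T. Of the 12 markers, 6 were over the minimum level in -4 wkpp over HE 1 wkpp. Of these, 4 were past 2-fold, all higher in HE 1 wkpp, beside 12.1% of all genes. In LE 1 wkpp over HE 1 wkpp the count was 4 of 5, again higher in HE cows, beside 9.45% of all genes. In HE 1 over HE 16 wkpp, 5 were over the minimum, of which 3 were past 2-fold and higher at 1 wkpp and 1, DES, was past and lower, at -1.46. In LE 1 over LE 16 wkpp, only DES and TNNT3 were over the minimum, at 0.20 and -0.40, and neither was past 2-fold. Under the minimum level in that comparison, where PLIN5 was past 2-fold, ACTA1 was at 1.12 and 1.35 and MYH1 at 0.57 and 1.93, while MYH7, the slow myosin heavy chain of oxidative fibres, was at 7.15 and 3.97 and MB, myoglobin, at 3.36 and 1.44, so these rest on very few reads. Over all groups MYH7 had exon levels of 15.4, 7.15, 3.97, 25.3 and 3.07, an order that differs from that of PLIN5 only in the lowest pair. Other muscle markers had another order. TNNT3, at 201, 216, 285, 2115 and 2759, and DES, at 2934, 1467, 1277, 1724 and 4747, were highest in HE 16 wkpp. On very few reads, CKM was also highest in HE 16 wkpp and TNNC1 at -4 wkpp. The skin keratin gene KRT14 was likewise highest in HE 1 wkpp, at 35.4 against 6.04 at -4 wkpp, while the sum of all 9 keratinocyte and hair markers was highest at -4 wkpp, at 1057, 572, 225, 354 and 134. The part of muscle and skin RNA in PLIN5 was not tested.

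CIDEA, which promotes the fusion and growth of droplets and is known from brown fat, showed the largest difference with calving. Its exon level was 1213 (1200 to 1226) at -4 wkpp, 127 (116 to 142) and 231 (214 to 242) in LE 1 and LE 16 wkpp, and 156 (141 to 167) and 266 (253 to 284) in HE 1 and HE 16 wkpp. All 4 groups after calving lay far under the group before it. The level at -4 wkpp was 9.58-fold over LE 1 wkpp and 7.77-fold over HE 1 wkpp by exon reads, and 5.43-fold and 5.42-fold by entire gene reads. From 1 to 16 wkpp CIDEA was 1.82-fold higher in LE and 1.70-fold higher in HE cows, and neither passed 2-fold. Between the diets, exon reads gave log2 differences of LE over HE of -0.30 at 1 wkpp and -0.21 at 16 wkpp, and entire gene reads gave 0.00 and 0.21, so no direction could be given.

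CIDEC, the CIDE protein of white fat that makes the single large droplet, differed both with calving and between the diets. Its exon level was 7094 (6989 to 7201) at -4 wkpp, 4946 (4855 to 5067) and 3617 (3482 to 3722) in LE 1 and LE 16 wkpp, and 1374 (1256 to 1468) and 1194 (1085 to 1326) in HE 1 and HE 16 wkpp. The ranges of the HE groups overlapped and the other neighbours were separate. CIDEC was 5.16-fold lower in HE 1 wkpp than at -4 wkpp, against 1.43-fold lower in LE 1 wkpp. It was past 2-fold between the diets at both times, 3.60-fold higher in LE than in HE cows at 1 wkpp and 3.03-fold at 16 wkpp. CIDEC and CIDEA had an unlike pattern over the groups, since CIDEA was as low in LE as in HE cows after calving and CIDEC was not.

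FITM2, the widely expressed FIT protein that partitions triacylglycerol into droplets, had exon levels of 859 (847 to 871) at -4 wkpp, 452 and 356 in LE 1 and LE 16 wkpp, and 181 and 222 in HE 1 and HE 16 wkpp. Its order of groups was that of CIDEC except that the HE groups changed places. FITM2 was 4.75-fold higher at -4 than in HE 1 wkpp and 1.90-fold higher than in LE 1 wkpp. LE exceeded HE 2.50-fold at 1 wkpp and 1.60-fold at 16 wkpp, of which only the first was past 2-fold. FITM1, the form of skeletal and heart muscle, also rested on few reads, with exon levels of 33.2, 46.1, 35.7, 38.9 and 37.0 for -4, LE 1, LE 16, HE 1 and HE 16 wkpp. The highest group, LE 1 wkpp, was 1.39-fold over the lowest, -4 wkpp. Their 95% counting intervals, 40.5 to 52.3 and 28.0 to 38.9, did not overlap. These intervals cover counting error only, and the pair was picked as the extremes, so no difference between cows is shown. Spike-in scaling turned 4 of the 6 directions of FITM1, though not that of -4 wkpp over LE 1 wkpp. BSCL2, seipin, whose loss causes generalised lipodystrophy, had exon levels of 298, 245, 257, 291 and 210 in the same order. It was within 1.42-fold over all groups.

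**Figure D2:**
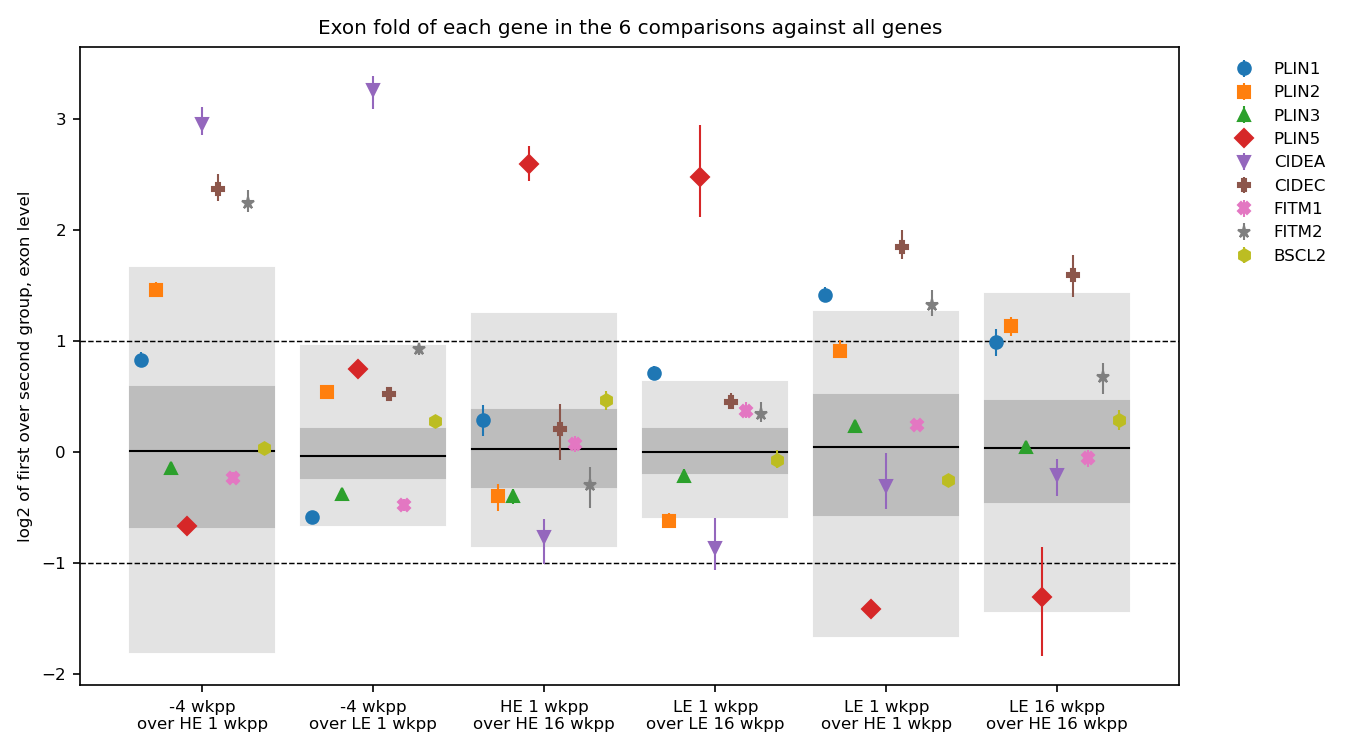
Log2 of the exon level in the first over the second group for the 9 genes in the 6 comparisons, with whiskers for the scale between tables. Light and dark grey boxes hold the middle 90% and 50% of all genes with a mean exon level of at least 10, black lines mark their median and dashed lines mark 2-fold. CIDEA reached 3.26 in -4 wkpp over LE 1 wkpp, and PLIN5 lay at -1.42 in LE 1 wkpp over HE 1 wkpp, where spike-in scaling turned it to 2.72.

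Before calving against 1 wkpp, 4 of the 9 genes were past 2-fold in HE cows, namely PLIN2, CIDEA, CIDEC and FITM2, all higher at -4 wkpp. Among all genes 19.7% were past 2-fold in this comparison, with 7.62% higher and 12.1% lower at -4 wkpp. In LE cows 1 of 9 was past, CIDEA, against 5.61% of all genes in either direction, 3.85% higher and 1.76% lower at -4 wkpp. The median log2 difference over the 9 genes was 0.83 in HE and 0.52 in LE cows, beside 0.01 and -0.03 over all genes. Both comparisons use the same libraries at -4 wkpp.

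From 1 to 16 wkpp, only PLIN5 was past 2-fold, in both diets, with the higher level at 1 wkpp. The background was 8.04% of all genes in HE and 2.25% in LE cows, of which 6.1% and 1.23% were higher and 1.94% and 1.02% lower at 1 wkpp. The median over the 9 genes was 0.07 in HE and 0.35 in LE cows, beside 0.03 and 0.00 over all genes. PLIN2, PLIN3 and CIDEA were lower at 1 than at 16 wkpp in both diets, by 0.40, 0.40 and 0.77 on the log2 scale in HE and by 0.62, 0.21 and 0.86 in LE cows.

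Between the diets at 1 wkpp, 4 of 9 genes were past 2-fold, 3 of them higher in LE cows (PLIN1, CIDEC and FITM2) and 1 lower (PLIN5). The background was 14.3% of all genes, of which 4.85% were higher and 9.45% lower in LE cows. At 16 wkpp, 2 of the 8 genes over the minimum level were past, PLIN2 and CIDEC, both higher in LE cows, against 14% of all genes in either direction, 6.16% higher and 7.84% lower in LE cows. The median over the genes was 0.24 at 1 wkpp and 0.49 at 16 wkpp, beside 0.04 and 0.04 over all genes. Over the 6 comparisons, 6 genes were past 2-fold at least once, and PLIN3, FITM1 and BSCL2 never were.

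**Figure D3:**
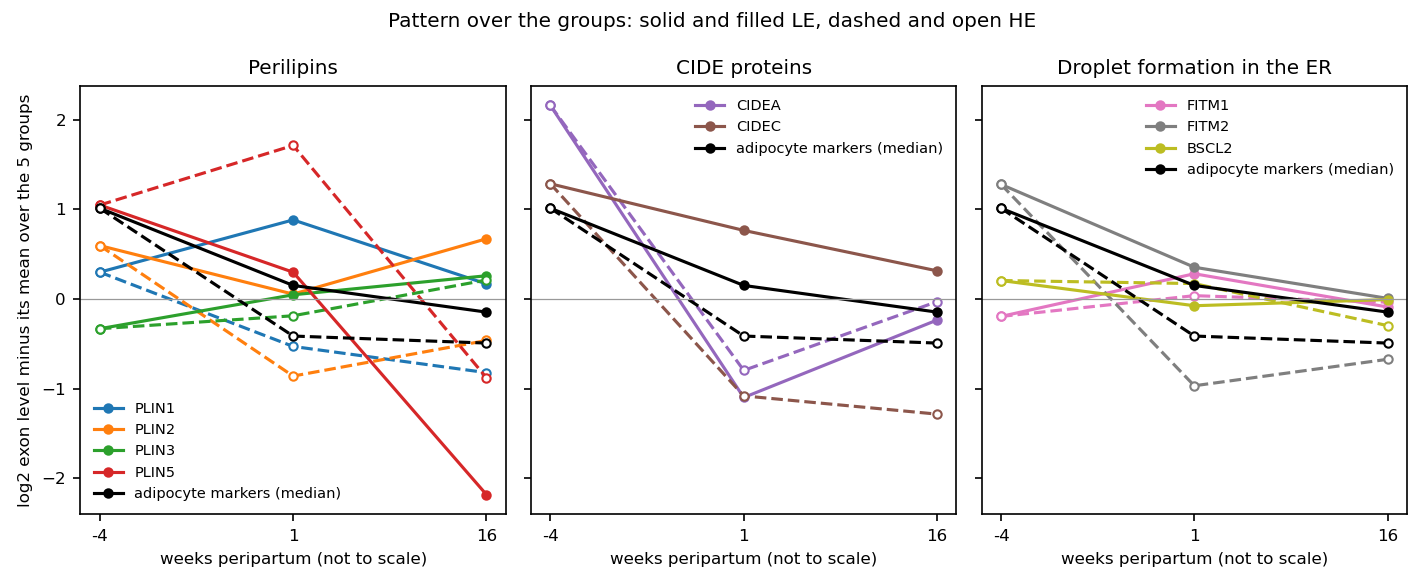
Log2 exon level of each gene minus its own mean over the 5 groups, against time, with solid lines and filled points for LE and dashed lines and open points for HE cows, both starting from the common group at -4 wkpp. The black lines show the median of 12 adipocyte markers, which went from 1.01 at -4 wkpp to 0.15 in LE 1 wkpp and -0.41 in HE 1 wkpp. CIDEC in LE cows lay above that median at both times after calving and CIDEC in HE cows below it.

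The adipocyte markers did not all move one way with calving. Their median log2 difference of -4 wkpp over HE 1 wkpp was 1.43, with 6 of 12 past 2-fold and higher at -4 wkpp, and over LE 1 wkpp it was 0.73, with 6 past and higher and 1 past and lower at -4 wkpp, FABP4, at -1.12. By exon direction alone, 9 of 12 were higher at -4 than in HE 1 wkpp and 7 of 12 higher than in LE 1 wkpp. PPARG, the regulator of adipocyte differentiation, is listed at 0 for the entire gene in all 6 tables, so it could not be counted as past here or among the regulators below. THRSP, a regulator of lipogenesis, was highest in the first comparison, at 5.55, and LIPE, hormone-sensitive lipase, lowest, at -0.96. At 1 wkpp, 3 of the 12 markers were past 2-fold and higher in LE cows and none was lower, with a median of 0.64. At 16 wkpp, 3 were higher and 2 lower, with a median of 0.18. The single markers ranged from -0.41 for PNPLA2 to 2.12 for LEP at 1 wkpp and from -2.06 for LEP to 1.47 for AQP7 at 16 wkpp. CIDEC (1.85) and PLIN1 (1.41) lay within this range at 1 wkpp, and at 16 wkpp PLIN1 (0.99) lay within it and CIDEC (1.60) above it.

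Of 7 genes of triacylglycerol synthesis, 4 were past 2-fold and higher at -4 than in HE 1 wkpp and 2 were lower, with a median of 2.99. In LE cows 4 were higher at -4 wkpp and 1 lower, with a median of 2.32. Both medians were above those of the droplet genes, 0.83 and 0.52, with no test of the difference. DGAT2, which adds the last fatty acid, had the highest difference in HE cows, at 5.97, and GPAM, which adds the first, in LE cows, at 4.29. DGAT1, the other enzyme of the last step, was lowest in HE cows, at -1.58, and LPIN1, which makes diacylglycerol, in LE cows, at -1.79. Of 6 lipases and lipase regulators, 1 was past 2-fold in HE cows, HILPDA, an inhibitor of adipose triglyceride lipase, which was higher at -4 wkpp by 1.52, and none was past in LE cows. The median of these 6 genes was -0.10 in HE and -0.15 in LE cows. Between the diets none of the 6 was past 2-fold at 1 wkpp, and HILPDA alone was at 16 wkpp, higher in LE cows by 1.37. From 1 to 16 wkpp, G0S2, another inhibitor of that lipase, was past 2-fold in HE cows, higher at 1 wkpp by 1.32. Of the genes of triacylglycerol synthesis, LPIN1 was higher at 1 than at 16 wkpp in HE cows by 1.37 and DGAT2 lower, at -1.50. None of them was past 2-fold from 1 to 16 wkpp in LE cows. Between the diets, DGAT2 was higher in LE cows at 1 wkpp, by 1.69, and DGAT1 was lower at 1 and 16 wkpp, at -1.20 and -1.06, while the other genes of triacylglycerol synthesis were not past 2-fold.

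Of 21 other droplet-associated proteins, 1 was past 2-fold and higher at -4 than in HE 1 wkpp, RAB5A, a small GTPase of endosomes, by 1.28, and 1 was lower, HSD17B13, at -1.77. Among all genes 19.7% were past 2-fold in either direction in this comparison. In LE cows 1 of 20 was past, LSS, a sterol synthesis enzyme, which was higher at -4 wkpp by 1.66. From 1 to 16 wkpp none of the 20 over the minimum level was past in either diet. HSD17B13 was just under that minimum in HE cows, with exon levels of 17.7 at 1 and 2.16 at 16 wkpp. In LE over HE cows, HSD17B13 was past at 1 wkpp, at -1.80, and LDAH and LSS were past at 16 wkpp, at 1.33 and -1.83. Of 7 regulators known to act on perilipin and CIDE genes, CEBPA was past 2-fold and higher at -4 than in HE 1 wkpp, by 1.53, and SREBF1 was past and higher at -4 than in LE 1 wkpp, by 1.34. Of the 6 regulators with entire gene reads, none was past 2-fold between the diets in both kinds of reads. The exon log2 difference of CEBPA, LE over HE, was 0.98 at 1 wkpp and 1.08 at 16 wkpp, the highest of the list at both times, and SREBF1 was the lowest, at -0.89 and -0.95.

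**Figure D4:**
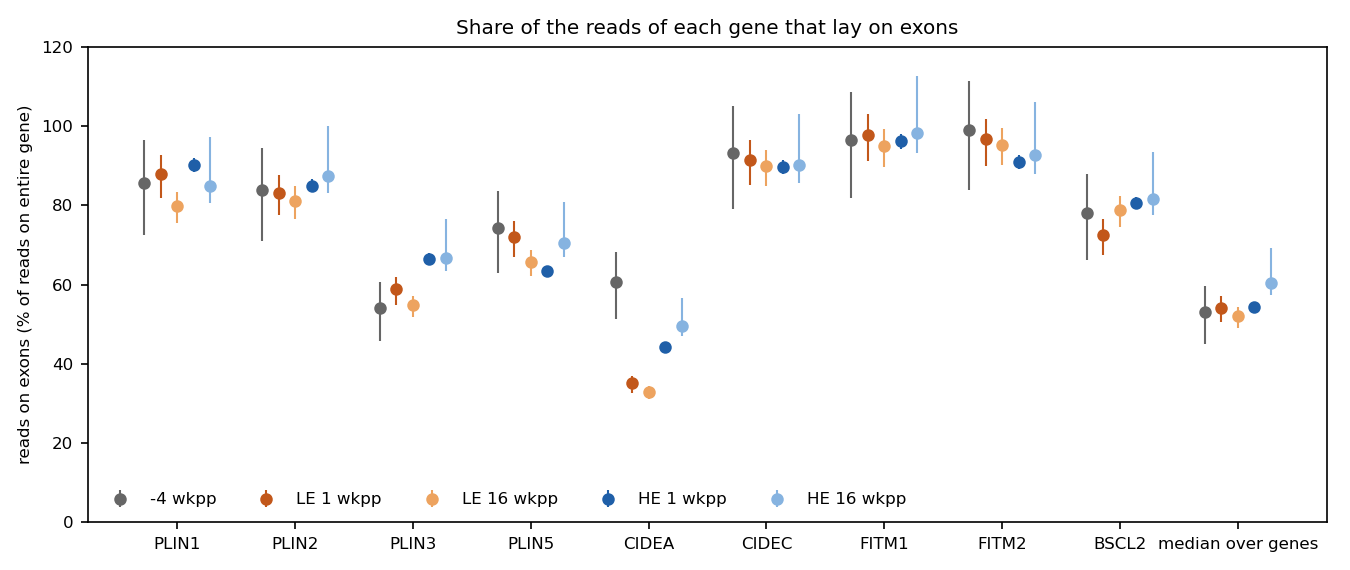
Reads on exons in percent of reads on the entire gene, for the 9 genes and as the median over all genes, in the 5 groups. Whiskers cover the uncertainty of both scales, which can carry a range over 100%. CIDEA stood at 60.6% at -4 wkpp and at 35.1% and 33.0% in the LE groups.

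The share of reads on exons was a further measure that was not used to choose the genes. CIDEA changed in this share as well as in level: 60.6% (51.4 to 68.3) of its reads lay on exons at -4 wkpp, against 35.1% (32.7 to 37.0) in LE 1, 33.0% (31.2 to 34.5) in LE 16, 44.2% (43.3 to 45.1) in HE 1 and 49.5% (47.0 to 56.7) in HE 16 wkpp. The ranges of the LE groups lay below those of the other 3, while those of -4 and HE 16 wkpp overlapped. The median over all genes was itself lower in LE 16, at 52.0% (49.1 to 54.4), than in HE 16 wkpp, at 60.5% (57.4 to 69.3), while at 1 wkpp the ranges of the diets overlapped. The share of PLIN3 was lower in LE than in HE cows with separate ranges, 58.9% (54.8 to 62.1) against 66.6% (65.3 to 67.9) at 1 wkpp and 54.8% (51.8 to 57.3) against 66.8% (63.5 to 76.5) at 16 wkpp, and it was 54.0% (45.8 to 60.8) at -4 wkpp. At 1 wkpp BSCL2 was lower in LE cows too, at 72.6% (67.6 to 76.5) against 80.6% (79.0 to 82.2), and PLIN5 was at 72.1% against 63.5%. The exact 95% counting intervals of PLIN5, 63.9% to 79.0% in LE and 54.9% to 71.6% in HE cows, overlapped, so no difference was detectable at this depth. CIDEC, FITM1 and FITM2 had between 89.6% and 99.0% of their reads on exons over the groups, PLIN1 and PLIN2 between 79.9% and 90.1%, BSCL2 between 72.6% and 81.7% and PLIN5 between 63.5% and 74.3%. In the RefSeq annotation of a later cattle assembly, ARS-UCD2.0, an unnamed gene overlaps CIDEA, PEX11A overlaps PLIN1, DCAF11 overlaps FITM1 and GNG3 overlaps BSCL2. PLIN5 lies next to PLIN4 there. The libraries kept the strand, but whether counting used it is not given in the sources used here, so reads of overlapping genes may have been shared or set aside.

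Among 7983 genes with a mean exon level of at least 100, the 5 whose centred log2 levels came closest to those of PLIN1 over the 5 groups were DDIT4, AGMO, SELE, KLF5 and PPAP2A, with root mean square differences of 0.09 to 0.15. For CIDEC they were VIT, RBP4, ARSK, EPHA3 and TLR5, at 0.14 to 0.19. RBP4, a retinol carrier made by liver and fat, had exon levels of 4545, 3654, 2079, 982 and 930 for -4, LE 1, LE 16, HE 1 and HE 16 wkpp. FITM2 was the droplet gene closest to CIDEC, at rank 43 with a difference of 0.36, while PLIN1 ranked 332. With 5 group means per gene, this likeness is a description only.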

How the data were processed

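RNA of dewlap subcutaneous fat was sequenced by the authors in 15 libraries (stranded total RNA). The authors processed the reads with bcl2fastq 2.15.0, Cutadapt 1.3, TopHat2 (bosTau8), htseq-count and DESeq2. The 6 deposited tables, 1 per comparison, hold for 13896 genes and 92 spike-in RNAs the mean count over 6 libraries, divided by the authors' DESeq2 size factors, for exons and for entire genes. They also hold the authors' log2 fold changes, standard errors, test statistics and p-values, which were not used. They hold no count of a single library, so the planned count test was not run. No column belonged to other samples (0 columns).

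Relative library size factors were recovered from genes read in only 1 group, whose means are sums of a few single-read units. They placed the tables on one scale, and 5 group levels per gene were solved from 6 means by relative least squares (numpy 2.4.6). The median of the largest misfit per gene was 0.0246% for exons and 0.0276% for entire genes. Library ratios varied between tables by up to 1.87% and 4.05%, which set the ranges given. Levels under 3 reads over a group were set to that floor. The method was tested on simulated data.

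Members, lists and rules were chosen with earlier results of these data known. The genes named were all members, the highest and lowest gene of each list where it is discussed, the 5 genes most like PLIN1 and CIDEC, and ADIPOQ; ACTA1, MYH7, MB, TNNT3, DES, PPARG and FABP4 were singled out after their values were seen. Of the gene names, 13754 matched RefSeq (ARS-UCD2.0) and 142 did not. Sequences and coordinates were not used here.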

Additional observations from a re-analysis of the deposited data

Results flagged for a closer look

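The spike-in RNAs, which entered the comparisons of the genes only as an alternative scaling, stood far apart between the groups. Their summed exon level was 14.9-fold higher in HE 1 wkpp and 7.41-fold higher in HE 16 wkpp than in the group at -4 wkpp. The group at -4 wkpp had received neither diet. Whether the same amount was added to every library is not given in the sources used here, and the part of the spike-ins in the differences between LE and HE cows was not tested.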

How the results depend on the processing

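The 13 differences of a droplet gene past 2-fold have the same direction in entire gene reads by the counting rule, so that setting could turn none. All 13 also kept their direction when the table of LE 16 with HE 16 wkpp was left out and when the tables were scaled by their sums around the lactation groups. The same held when the median gene was set equal in all groups, which moved exon differences only by -0.04 to 0.02 on the log2 scale. Such small changes could hardly turn a difference past 2-fold. Under spike-in scaling 12 of 13 kept their direction, and PLIN5 in LE 1 over HE 1 wkpp turned to 2.72. Of all 54 differences, 16 turned under spike-in scaling and 3 with entire gene reads; apart from PLIN5 at 1 wkpp, none of them was counted as past 2-fold. Counting exon reads alone, entire gene reads alone or without a minimum level kept each count within 1.5 times. Spike-in scaling gave 9 genes past 2-fold in -4 wkpp over HE 1 wkpp, 5 in HE 1 over HE 16 wkpp, 3 in LE 1 over LE 16 wkpp, 9 in LE 1 over HE 1 wkpp and 8 in LE 16 over HE 16 wkpp. A fold of 1.5 gave 3 in -4 wkpp over LE 1 wkpp, 2 in HE 1 over HE 16 wkpp and 4 in LE 1 over LE 16 wkpp, and a fold of 3 gave 1 in LE 1 over HE 1 wkpp and 0 in LE 16 over HE 16 wkpp. No paired analysis was possible because the tables hold means over libraries, and leaving out each replicate in turn was not run for the same reason. The few reads counted in the HE groups limit PLIN5 and FITM1 most, with 16.0 and 67.3 exon reads behind HE 16 wkpp.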
